A study of Homo sapiens with 12 samples.

Results

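Troponin is the calcium switch of the striated muscle thin filament, and 8 human genes encode its subunits. Troponin C (TNNC1, TNNC2) binds calcium, troponin I (TNNI1, TNNI2, TNNI3) holds the filament off in its absence, and troponin T (TNNT1, TNNT2, TNNT3) ties the complex to tropomyosin. These genes were found by symbol in the deposited expression table, and all 8 were among its 65975 gene identifiers. They were chosen because TNNC1 was lower with KDM3A-sh2 in both lines and TNNT2 in Rh30. The knockdown values of the troponin genes, and the difference of these values between lines, are therefore given as a description with no test. The lines themselves were compared in the control libraries, a contrast that the choice did not use, although its libraries are also the controls of the knockdown comparisons.

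The samples were 12 mRNA libraries of established human rhabdomyosarcoma (RMS) cell lines, with 3 libraries per group and 4 groups. RD stands for fusion-negative RMS (FN-RMS) and Rh30 for fusion-positive RMS (FP-RMS), and RMS is a tumour whose cells express part of the skeletal muscle programme. All 4 groups carried a lentiviral shRNA and were selected in puromycin at 1 ug/ml, either the non-targeting Scrambled shRNA (Scramble) or KDM3A-sh2, which targets the histone demethylase KDM3A. Each subtype stood as 1 line and the knockdown as 1 shRNA, and neither labels nor Methods state that a group's 3 libraries were separate cultures, so p-values measure the spread between these libraries. The descriptions of the 3 Rh30 Scramble libraries all end in 1, where those of the other groups end in 1 to 3, although their titles number them 1 to 3. RD was kept in DMEM and Rh30 in RPMI, so line and growth medium cannot be told apart in any comparison of the lines.

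Each fast or slow fibre type, and the heart, uses its own troponin genes. TNNC1 serves slow skeletal muscle and heart and TNNC2 fast muscle. TNNI1 is the slow, TNNI2 the fast and TNNI3 the cardiac troponin I, and TNNT1 is the slow, TNNT2 the cardiac and TNNT3 the fast troponin T. TNNT2 is also known from embryonic skeletal muscle, where cardiac and skeletal isoforms are expressed together before fibres mature.

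Troponin I and T genes lie in pairs in the genome, and troponin C genes lie alone. In GENCODE 29 (GRCh38), TNNT2 (ENSG00000118194) spans chromosome 1 from 201359008 to 201377762 and TNNI1 (ENSG00000159173) from 201403768 to 201429866, both on the minus strand and 26005 bases apart. TNNI2 (ENSG00000130598; 1838989 to 1841680) and TNNT3 (ENSG00000130595; 1919562 to 1938706) lie on the plus strand of chromosome 11, 77881 bases apart. TNNT1 (ENSG00000105048; 55132794 to 55149354) and TNNI3 (ENSG00000129991; 55151767 to 55157773) lie on the minus strand of chromosome 19 with 2412 bases between them. TNNC1 (ENSG00000114854) spans chromosome 3 from 52451102 to 52454070 and TNNC2 (ENSG00000101470) chromosome 20 from 45823214 to 45833745, both on the minus strand. Values are per gene, over exons.

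RefSeq promoter sequences (GRCh38.p14) matched 3 of the 8 genes, TNNT2, TNNT1 and TNNI3, and these are shown. The other genes, TNNC1 among them, had no match and were not searched. Each run holds the 250 bases before the RefSeq start on the minus strand, at chr1:201377681-201377930 for TNNT2, chr19:55149207-55149456 for TNNT1 and chr19:55157733-55157982 for TNNI3. Capitals mark the E-box CANNTG, the core that MyoD family factors bind, and the MCAT motif CATTCC, the core that TEAD factors bind, each searched on both strands.
TNNT2: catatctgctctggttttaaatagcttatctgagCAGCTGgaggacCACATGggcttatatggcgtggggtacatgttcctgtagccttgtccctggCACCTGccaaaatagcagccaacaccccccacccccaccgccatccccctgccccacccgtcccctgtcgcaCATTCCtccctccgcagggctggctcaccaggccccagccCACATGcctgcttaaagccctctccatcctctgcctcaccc
TNNT1: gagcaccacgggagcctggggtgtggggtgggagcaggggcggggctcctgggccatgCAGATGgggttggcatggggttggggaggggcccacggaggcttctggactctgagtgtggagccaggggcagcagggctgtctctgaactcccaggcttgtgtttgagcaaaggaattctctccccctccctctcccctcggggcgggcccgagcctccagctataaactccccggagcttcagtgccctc
TNNI3: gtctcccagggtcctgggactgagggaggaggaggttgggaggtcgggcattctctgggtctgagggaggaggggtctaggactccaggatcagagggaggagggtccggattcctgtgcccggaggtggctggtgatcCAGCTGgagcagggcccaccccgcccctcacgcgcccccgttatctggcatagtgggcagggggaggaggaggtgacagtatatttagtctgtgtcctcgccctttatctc
The TNNT2 run holds 4 E-boxes, which begin 216, 204, 153 and 41 bases before the start, and 1 MCAT motif, which begins 81 bases before it. The TNNT1 run holds 1 E-box at 192 bases and the TNNI3 run 1 at 111 bases. None of these matches overlaps another. Of 35116 RefSeq promoter runs of this length, 61.8% hold an E-box and 11.9% an MCAT motif. The MEF2 motif (in 2.8% of all runs) and the CArG motif of SRF (in 1.16%) were searched as well and had no match in these 3 windows.

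Expression was measured as FPKM, the fragments of a gene scaled to its exon length and to the library's mapped reads, so levels can be compared between genes. Differences were computed on log2(FPKM + 1), where a value of 1 is close to a doubling for highly expressed genes and understates the change of low ones. They were fitted with limma over genes that averaged 1 FPKM or more, and a gene was called where the two-sided adjusted p was under 0.05. FPKM do not hold the number of reads. Depth relative to the median library, estimated from the spacing of the lowest values, was 0.862 to 1.22. It was 1.05 to 1.22 in RD Scramble and 0.862 to 1.00 in RD KDM3A-sh2, and 0.997 to 1.05 and 0.943 to 0.990 in the corresponding Rh30 groups. By this estimate depth was lower in every KDM3A-sh2 library than in any Scramble library of RD. In Rh30 the nearest libraries of the groups, at 0.990 and 0.997, lie about a step of the estimate apart and cannot be ordered. The part of depth in the results was not tested. KDM3A itself was 33.5 ± 2.50 FPKM with Scramble and 12.2 ± 1.10 with KDM3A-sh2 in RD (SD, n = 3 each), a log2 difference of -1.39 (SE 0.08, adjusted p = 5e-05 from limma). It was 29.7 ± 2.14 and 14.1 ± 1.15 FPKM in Rh30, a log2 difference of -1.02 (SE 0.08, adjusted p = 0.000348 from limma).

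The muscle character of both lines was checked with 8 skeletal muscle and 10 heart markers. In each group 6 of the 8 skeletal markers reached a mean of 1 FPKM, with high MYOD1, MYOG, DES and CHRNA1, while MYF5 was listed at 0 in all libraries of 3 groups. The summed skeletal markers ran from 2106 to 2327 FPKM in RD Scramble and 2621 to 2743 in RD KDM3A-sh2, and from 2204 to 2435 and 2609 to 2637 in Rh30. These sums weigh the most abundant markers. With KDM3A-sh2, 2 markers were called higher and 3 lower of 6 tested in RD, and 3 higher and 1 lower of 6 in Rh30. Without single libraries they were 1 to 2 and 2 to 3 in RD, and 2 to 3 and 1 to 2 in Rh30. Over all genes 21.6% were called higher and 19.5% lower in RD, and 15.3% and 13.2% in Rh30. The heart list summed to 18.5 to 19.8 FPKM in RD Scramble, 12.4 to 13.6 in RD KDM3A-sh2, 39.3 to 44.0 in Rh30 Scramble and 37.3 to 39.3 in Rh30 KDM3A-sh2. Heart genes with a mean of 1 FPKM or more numbered 3 of 10 with Scramble and 2 with KDM3A-sh2 for RD. For Rh30 they numbered 5 and 6. The heart factor TBX5 was listed at 0 in all 12 libraries. In every group the sum of the 10 heart genes was far below TNNT2 alone and above TNNI3. The part of these marker sums in the results was not tested, and in bulk RNA fewer expressing cells and less RNA per cell cannot be told apart.

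Slow and embryonic-type genes carried most of the troponin RNA in both lines. In RD Scramble the order of levels was TNNT1 (723 ± 26.7 FPKM), TNNT2 (437 ± 17.1), TNNI1 (372 ± 14.6), TNNC2 (170.9 ± 6.26), TNNC1 (43.1 ± 0.768), TNNT3 (23.5 ± 3.19), TNNI2 (12.8 ± 1.59) and TNNI3 (0.632 ± 0.0677; SD, n = 3 each), and no neighbours in this order overlapped. In Rh30 Scramble it was TNNI1 (1572 ± 105.9 FPKM), TNNT1 (1517 ± 64.0), TNNT2 (575 ± 14.7), TNNC1 (42.6 ± 1.07), TNNI2 (33.1 ± 2.05), TNNI3 (3.99 ± 0.239), TNNC2 (3.30 ± 0.348) and TNNT3 (3.12 ± 0.637). The Rh30 ranges of TNNI1 and TNNT1 overlapped, and so did those of TNNC2 and TNNT3. With KDM3A-sh2 the order in RD stayed as it was, while in Rh30 TNNT1 stood above TNNI1, TNNI2 above TNNC1, and TNNC2 last.

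**Figure D1:**
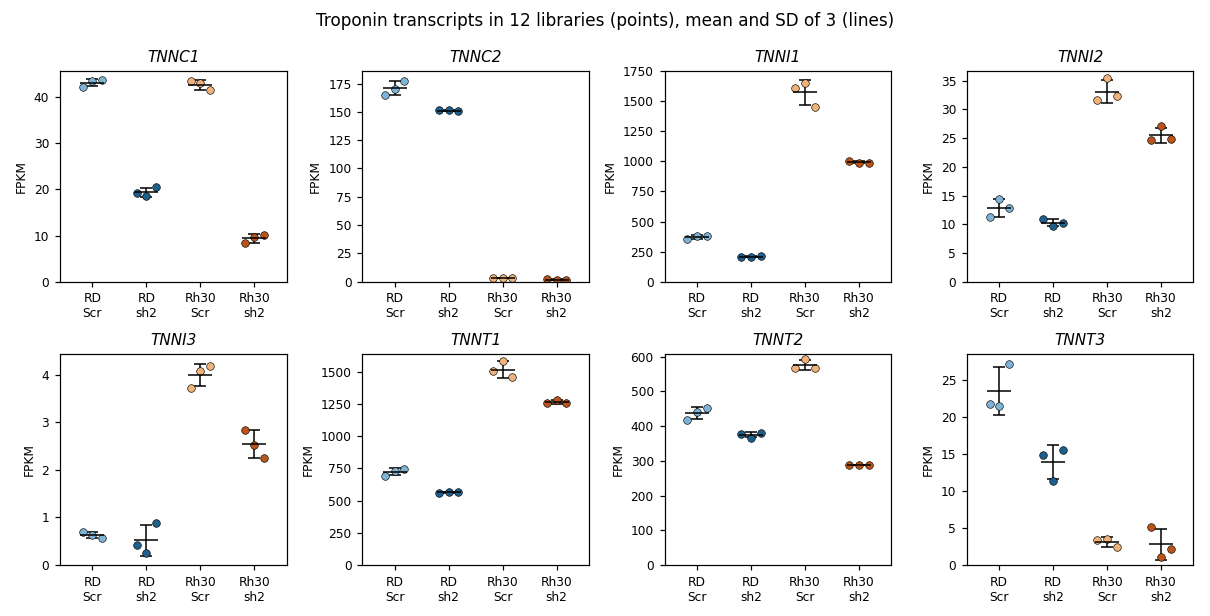
Expression of the 8 troponin genes in FPKM (vertical axes start at 0 and differ between panels) in the 4 groups, with 1 point per library and lines for the mean and SD of 3. The TNNC1 mean is 43.1 FPKM in RD and 42.6 FPKM in Rh30 with Scramble, and 19.4 FPKM and 9.37 FPKM with KDM3A-sh2.

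In the control state the levels of 6 troponin genes differed between Rh30 and RD, and for TNNC1 no difference was detected. TNNI3 passed the filter on low values only through Rh30 and so had to differ, and it is given as a description with no test. Of the other 7 genes, 6 passed the threshold in the limma comparison of Rh30 with RD Scramble libraries, against 74.5% of all 18357 genes tested, and the ranges of 6 did not overlap, against 77.5% of all genes. These shares are near the background.

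TNNC2, the fast muscle troponin C, had 165.0, 170.1 and 177 FPKM in RD Scramble and 3.61, 2.92 and 3.36 FPKM in Rh30 Scramble. Its mean was 51.8 times as high in RD, a log2 difference of -5.32 (SE 0.07, adjusted p = 1.03e-08 from limma). TNNT3, the fast troponin T, went the same way, with 21.8, 21.5 and 27.2 FPKM in RD and 3.44, 3.54 and 2.39 FPKM in Rh30 (log2 difference -2.58, SE 0.14, adjusted p = 3.89e-06 from limma). The fast troponin I did not follow them. TNNI2 was 11.3, 14.5 and 12.8 FPKM in RD and 31.6, 35.4 and 32.3 FPKM in Rh30 (log2 difference 1.31, SE 0.10, adjusted p = 1.46e-05 from limma), so that the 3 fast genes did not move as a group between the lines.

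TNNI1, TNNT1 and TNNT2, the abundant troponin I and T genes, were higher in Rh30. TNNI1 had 355, 382 and 379 FPKM in RD Scramble and 1609.6, 1654 and 1453 FPKM in Rh30 Scramble, 4.23 times the RD mean (log2 difference 2.08, SE 0.06, adjusted p = 1.33e-07 from limma). TNNT1 had 693, 733 and 744 FPKM in RD and 1506, 1586 and 1459.8 in Rh30 (log2 difference 1.07, SE 0.04, adjusted p = 7.83e-07 from limma). TNNT2 differed least among these, with 419, 440.4 and 453 FPKM in RD and 566, 592 and 568 in Rh30 (log2 difference 0.40, SE 0.04, adjusted p = 7.59e-05 from limma). TNNI3 was at 0.704, 0.623 and 0.570 FPKM in RD and at 3.72, 4.09 and 4.17 FPKM in Rh30, low in both lines.

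TNNC1 had 42.2, 43.4 and 43.6 FPKM in RD Scramble and 43.5, 43.0 and 41.4 in Rh30 Scramble. The ranges overlapped, with a log2 difference of -0.01 (SE 0.04, adjusted p = 0.766 from limma). On the TPM scale, where each library has an equal sum, the difference was -0.12 and passed the threshold, so the level of TNNC1 in Rh30 relative to RD rests on the scaling.

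With KDM3A-sh2, troponin transcripts were lower in both lines. In RD 7 of the 7 troponin genes tested were called lower, where 19.5% of all 17988 genes tested were called lower and 21.6% higher. In Rh30 7 of 8 were called lower, where 13.2% of all 17803 genes were called lower and 15.3% higher. TNNI3 in RD did not reach the filter and was not tested, and TNNT3 in Rh30 did not pass the threshold. The genes were chosen on these contrasts, so the counts describe them and are no evidence of a direction. The median log2 difference was -0.36 over the 7 genes tested in RD and -0.58 over the 8 in Rh30, beside 0.01 and 0.03 over all genes tested. In each line the Scramble and KDM3A-sh2 libraries did not overlap in 7 of the 8 genes, where 53.4% of all tested RD genes and 45.8% of those in Rh30 showed no overlap. Summed over the 8 genes, troponin was 1783 ± 67.0 FPKM in RD Scramble, 1344 ± 13.9 in RD KDM3A-sh2, 3751 ± 179.5 in Rh30 Scramble and 2586 ± 13.2 in Rh30 KDM3A-sh2 (SD, n = 3 each).

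TNNC1 showed the largest log2 differences of the 8 genes in both lines. In RD it went from 42.2, 43.4 and 43.6 FPKM with Scramble to 19.3, 18.5 and 20.4 with KDM3A-sh2, which left 45.0% of the mean (log2 difference -1.11, SE 0.05). In Rh30 it went from 43.5, 43.0 and 41.4 FPKM to 8.28, 9.73 and 10.1, which left 22.0% (log2 difference -2.08, SE 0.08). All 3 knockdown libraries of a line lay below all its control libraries, and the Rh30 knockdown libraries also lay below those of RD. TNNC2, the other troponin C gene, went from 165.0, 170.1 and 177 FPKM to 151.6, 151.4 and 150.6 in RD (log2 difference -0.17, SE 0.04) and from 3.61, 2.92 and 3.36 to 2.12, 1.43 and 1.26 in Rh30 (log2 difference -0.73, SE 0.16). In RD 88.5% of the fast gene's mean was left, and in Rh30 48.7% of a level that was already low. Rh30 KDM3A-sh2 libraries put TNNC2 close to the filter on low values, and its call there was lost without Scramble replicate 1 (-0.68) or KDM3A-sh2 replicate 2 (-0.69).

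Among the troponin I genes TNNI1 had the larger differences on log2(FPKM + 1), a scale that understates the change of the low TNNI3. Its values were 355, 382 and 379 FPKM with Scramble and 207, 207 and 215 with KDM3A-sh2 in RD (56.4% of the control mean, log2 difference -0.82, SE 0.04). In Rh30 they were 1609.6, 1654 and 1453 with Scramble and 1000.5, 987 and 985 with KDM3A-sh2 (63.0%, log2 difference -0.66, SE 0.05). The groups were clearly apart in both lines, and the Rh30 knockdown libraries still held more TNNI1 than any RD library. TNNI2 went from 11.3, 14.5 and 12.8 FPKM to 10.9, 9.69 and 10.2 in RD (log2 difference -0.29, SE 0.10). This call was lost in 10 of 14 other analyses on the log2 scale, among them those without Scramble replicate 2 (-0.21) or 3 (-0.29) or KDM3A-sh2 replicate 1 (-0.33), 2 (-0.26) or 3 (-0.29). In Rh30 TNNI2 went from 31.6, 35.4 and 32.3 FPKM to 24.6, 27.04 and 24.8 (log2 difference -0.36, SE 0.06). The cardiac TNNI3 went from 3.72, 4.09 and 4.17 FPKM to 2.85, 2.53 and 2.25 in Rh30 (log2 difference -0.50, SE 0.11), and in RD it was below 1 FPKM in every library, with overlapping groups. Over the other analyses on the log2 scale, the Rh30 difference ran from -0.637 to -0.438 for TNNI3 and from -0.719 to -0.625 for TNNI1. These ranges overlap, so TNNI1 and TNNI3 are not ranked in Rh30.

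TNNT2 and TNNT1, both abundant, behaved differently in Rh30. TNNT2 went from 566, 592 and 568 FPKM with Scramble to 287, 288 and 288 with KDM3A-sh2 in Rh30, with a mean of 288 FPKM left of 575 (log2 difference -0.997, SE 0.03). In RD it went from 419, 440.4 and 453 FPKM to 376, 367 and 381 (85.6%, log2 difference -0.22, SE 0.04). TNNT1 went from 1506, 1586 and 1459.8 FPKM to 1253, 1284 and 1261 in Rh30 (83.4%, log2 difference -0.26, SE 0.04) and from 693, 733 and 744 to 561, 566 and 565 in RD (78.1%, log2 difference -0.36, SE 0.03). Every Rh30 Scramble library thus held more TNNT2 than any RD library, and every Rh30 knockdown library held less, whereas TNNT1 was higher in all Rh30 libraries. TNNT3 went from 21.8, 21.5 and 27.2 FPKM to 14.9, 11.4 and 15.5 in RD (59.2%, log2 difference -0.72, SE 0.14). In Rh30 its knockdown libraries were spread over 5.10, 1.09 and 2.23 FPKM around the control values of 3.44, 3.54 and 2.39 (log2 difference -0.24, SE 0.37), and the groups overlapped.

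**Figure D2:**
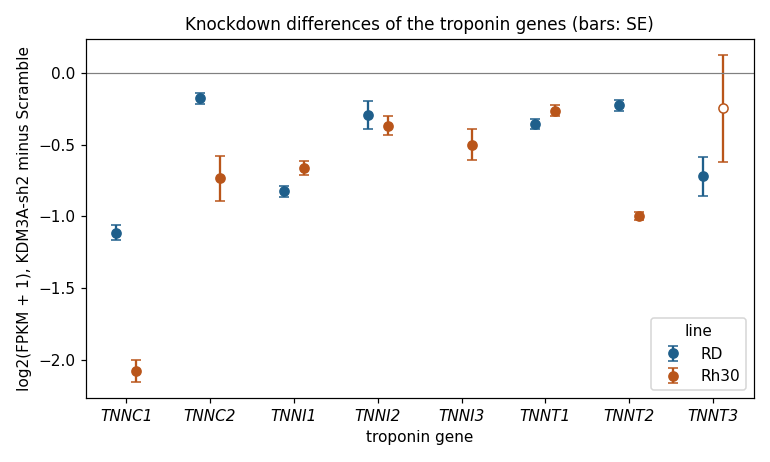
Difference of each troponin gene on log2(FPKM + 1), KDM3A-sh2 minus Scramble (vertical axis), in RD and Rh30, with bars for the SE. Filled points passed the threshold, the open point did not, and TNNI3 was not tested in RD. The lowest points are TNNC1 at -1.11 in RD and -2.08 in Rh30.

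The difference of the knockdown values between lines was read from the interaction term of a fit over all 12 libraries, as Rh30 minus RD. It was -0.96 for TNNC1 (SE 0.09), -0.77 for TNNT2 (SE 0.05) and -0.56 for TNNC2 (SE 0.15), and these 3 of the 8 genes lay past the threshold, where 27.8% of all 18517 genes did. For TNNI1 (0.16, SE 0.07), TNNI2 (-0.07, SE 0.12), TNNI3 (-0.38, SE 0.20), TNNT1 (0.10, SE 0.05) and TNNT3 (0.47, SE 0.44) it did not pass. Over all genes 2665 values were called positive and 2486 negative, and on the TPM scale 2094 and 3051. For TNNC2 the sign held on the log2 scale only, and the difference of the drops was 17.98 in FPKM, with the larger drop in RD.

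Shares within each subunit give the same data as mixtures. TNNC1 made up 20.1% ± 0.349 of the summed troponin C FPKM in RD Scramble and 11.4% ± 0.538 in RD KDM3A-sh2 (SD, n = 3 each). In Rh30 it made up 92.8% ± 0.713 and 85.2% ± 4.95. RD troponin C was therefore mainly the fast gene and Rh30 troponin C mainly the slow gene, in every library. The troponin C sum was 213.9 ± 6.96 and 170.6 ± 0.611 FPKM in RD and 45.9 ± 1.15 and 11.0 ± 0.506 in Rh30. TNNI1 held 96.5% ± 0.278, 95.1% ± 0.297, 97.7% ± 0.153 and 97.3% ± 0.138 of troponin I in RD Scramble, RD KDM3A-sh2, Rh30 Scramble and Rh30 KDM3A-sh2. Troponin I sums were 385 ± 15.9 and 220.4 ± 4.83 FPKM in RD and 1609 ± 106.9 and 1019 ± 8.06 in Rh30. TNNT2 held 36.9% ± 0.0603 of troponin T in RD Scramble and 39.3% ± 0.414 in RD KDM3A-sh2, but 27.5% ± 0.446 in Rh30 Scramble and 18.5% ± 0.134 in Rh30 KDM3A-sh2. The troponin T sums were 1184 ± 45.9 and 953 ± 8.62 FPKM in RD and 2095 ± 78.0 and 1556 ± 14.5 in Rh30. Troponin C, I and T work as a complex with equal parts, and troponin C was the lowest sum in all 4 groups.

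**Figure D3:**
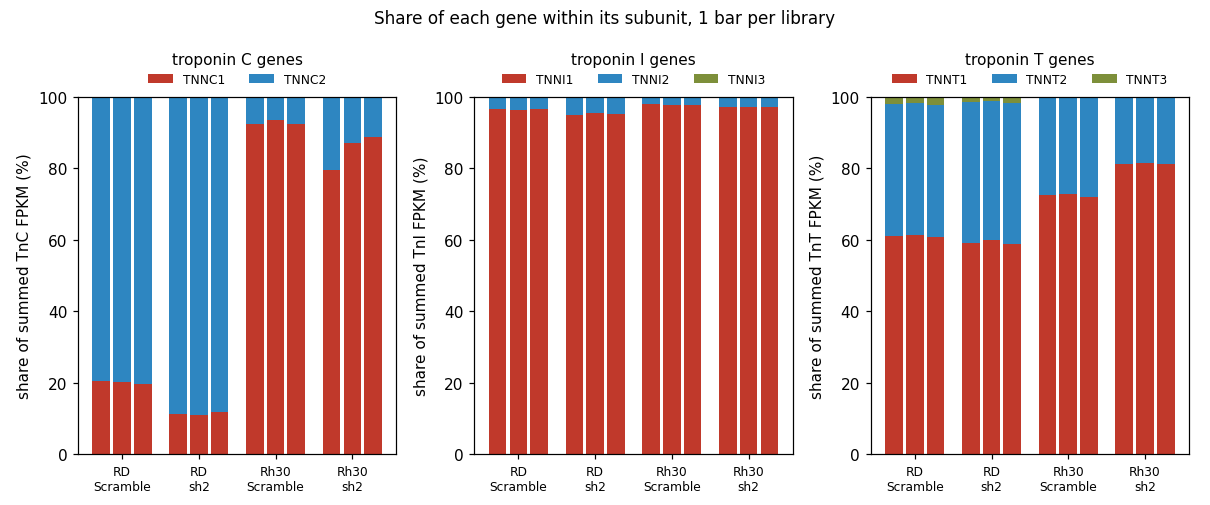
Share of each gene in the summed FPKM of its subunit (vertical axis, percent), with 1 bar per library in the order of replicates 1 to 3. TNNC2 (blue) fills most of troponin C in RD and TNNC1 (red) most of it in Rh30, and the TNNT2 share in Rh30 is 27.5% with Scramble and 18.5% with KDM3A-sh2.

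Other genes of the muscle apparatus were taken from 5 lists of 72 genes (thin filament, thick filament, Z-disc, calcium release and uptake, and myogenic regulators). With limma 14 were called higher and 23 lower of 54 tested in RD, and 11 higher and 15 lower of 46 tested in Rh30. Over all genes tested 21.6% were called higher and 19.5% lower in RD, and 15.3% higher and 13.2% lower in Rh30, and these shares are the background of each list that follows. Without single libraries the numbers called were 12 to 13 higher and 16 to 20 lower in RD and 8 to 10 higher and 10 to 12 lower in Rh30. The 15 lower in Rh30 included PVALB, which reached the filter only through Scramble. The medians were -0.11 in RD and -0.09 in Rh30 on the log2 scale.

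In the thin filament list, whose proteins share the filament with troponin, 2 genes rose and 5 fell of 8 tested in RD, and 1 rose and 3 fell of 9 tested in Rh30. Without single RD libraries 4 to 5 fell, since TPM3 kept its call only without KDM3A-sh2 replicate 3. TPM1, which encodes a tropomyosin that troponin T binds, fell from 279.5 ± 11.5 to 92.5 ± 2.11 FPKM in Rh30 (log2 difference -1.58, adjusted p = 2.05e-05 from limma), and in RD its level went from 150.5 ± 2.05 to 133.8 ± 0.584 FPKM (-0.17, adjusted p = 0.00425). TPM2 fell in RD (-0.27, adjusted p = 0.000821 from limma) and was 739 ± 27.3 and 800.0 ± 12.8 FPKM in Rh30 (0.12, adjusted p = 0.0514), where it passed without Scramble replicate 2 (0.14, adjusted p = 0.0347). The cardiac actin gene ACTC1, expressed in embryonic muscle, fell by 0.30 in RD (adjusted p = 0.000893 from limma), and its call in Rh30 (-0.14, adjusted p = 0.0099) was lost without KDM3A-sh2 replicate 1 (-0.14, adjusted p = 0.0534). The skeletal actin gene ACTA1 fell in RD from 14.1 ± 2.36 to 7.66 ± 2.02 FPKM (-0.82, adjusted p = 0.0113). NEB, the nebulin gene of the same filament, rose in RD from 85.3 ± 3.35 to 158.4 ± 2.79 FPKM (0.89, adjusted p = 2.06e-05 from limma) and in Rh30 from 58.5 ± 2.99 to 105.8 ± 1.80 (0.84, adjusted p = 0.000122). The thin filament list thus held genes that rose beside genes that fell.

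Of 11 thick filament genes tested in RD, 2 rose and 7 fell, and of 9 tested in Rh30, 2 rose and 3 fell. Without any single RD library 1 rose, since TTN lost its call there each time. The number that fell without single libraries was 5 to 7 in RD and 2 to 3 in Rh30. MYLPF, a fast myosin light chain, fell from 43.9 ± 1.37 to 13.6 ± 1.43 FPKM in Rh30 (log2 difference -1.63, adjusted p = 8.33e-05 from limma), and the embryonic myosin gene MYH3 fell from 105.9 ± 10.5 to 58.8 ± 0.677 FPKM in RD (-0.83, adjusted p = 0.000196). TTN, the titin gene, rose from 11.2 ± 1.16 to 22.0 ± 0.315 FPKM in Rh30 (0.93, adjusted p = 0.000428 from limma). In the Z-disc list 3 rose and 2 fell of 9 tested in RD, and 3 rose and 1 fell of 7 in Rh30. In Rh30 only CSRP3 kept its rise without each library, since MYOZ2 and TCAP lost theirs every time. In RD the number that fell was 1 without Scramble replicate 2 or KDM3A-sh2 replicate 1 or 2, and in Rh30 it was 2 without Scramble replicate 1. CSRP3, which encodes muscle LIM protein, rose in RD from 10.4 ± 0.810 to 22.4 ± 1.82 FPKM (1.04, adjusted p = 0.00015 from limma). Of the genes of calcium release and uptake, 5 were called higher and 5 lower of 16 in RD, and 2 higher and 4 lower of 11 in Rh30. Among the 4 lower in Rh30, PVALB reached the filter only through Scramble. The number lower was 3 in RD without Scramble replicate 2 or 3 or KDM3A-sh2 replicate 2 or 3, and 2 in Rh30 without any one library. Their calcium pump ATP2A2 fell in RD (-0.13, adjusted p = 0.0111 from limma) and in Rh30 (-0.23, adjusted p = 0.00305).

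Myogenic regulators, the transcription factors of the muscle programme, were called higher in 2 and lower in 4 of 10 genes in RD, and higher in 3 and lower in 4 of 10 in Rh30, where 2 were lower without Scramble replicate 1 or KDM3A-sh2 replicate 1. MYOG rose from 691 ± 40.1 to 1017 ± 11.2 FPKM in Rh30 (log2 difference 0.56, adjusted p = 0.0004 from limma), where 7 troponin genes were called lower. MYOD1 fell in RD (-0.25, adjusted p = 0.00383 from limma) and rose in Rh30 (0.28, adjusted p = 0.0222 from limma), a call lost without KDM3A-sh2 replicate 1 (0.26, adjusted p = 0.073), 2 (0.29, adjusted p = 0.0509) or 3 (0.28, adjusted p = 0.0601). In RD MYOG was 184.4 ± 9.77 and 167.3 ± 3.94 FPKM (-0.14, adjusted p = 0.049), a call made in 4 of 15 other analyses and lost without any library but Scramble replicate 1 (-0.16 to -0.11). MEF2C rose in RD (0.45, adjusted p = 0.00488 from limma) and in Rh30 (0.80, adjusted p = 0.000261). TEAD4, a TEAD factor of the kind that binds MCAT motifs, fell in RD from 50.7 ± 0.644 to 41.7 ± 1.51 FPKM (-0.28, adjusted p = 0.00236 from limma) and in Rh30 from 48.9 ± 3.57 to 33.8 ± 0.332 (-0.52, adjusted p = 0.00153). SIX4 also fell in both lines (-0.41 and -0.39, adjusted p = 0.00225 and 0.00476 from limma). TEAD1, the other TEAD factor of the list, was not called in RD (-0.009) and fell in Rh30 (-0.23, adjusted p = 0.0179 from limma). Its Rh30 call was lost without Scramble replicate 1 or KDM3A-sh2 replicate 1, and with a replicate block.

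**Figure D4:**
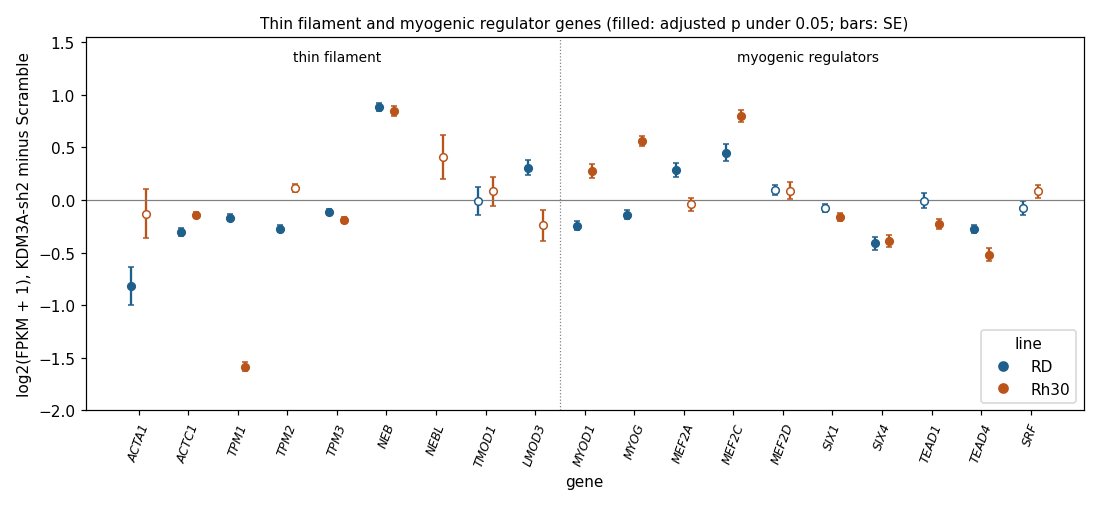
Difference on log2(FPKM + 1), KDM3A-sh2 minus Scramble (vertical axis), of the tested thin filament and myogenic regulator genes (horizontal axis) in RD and Rh30, with bars for the SE. Filled points had a limma adjusted p under 0.05. TPM1 lies at -1.58 in Rh30 and at -0.17 in RD, while NEB lies above 0 in both lines.

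By fibre type, 5 slow fibre genes other than troponin were tested in RD (1 higher, 4 lower) and 4 in Rh30 (1 higher, 2 lower), and of 6 fast fibre genes tested in each line 1 was called higher in each, 2 lower in RD and 3 lower in Rh30. Of the fast genes lower in Rh30, PVALB (4.63 and 0.872 FPKM with Scramble and KDM3A-sh2) reached the filter only through Scramble. MYL1 lost its Rh30 call without any library but KDM3A-sh2 replicate 1. The slow gene higher in Rh30 was MYOZ2, whose call was lost without any one library. In RD 3 slow genes were lower without any library but KDM3A-sh2 replicate 3. CKM, the muscle creatine kinase gene, fell in RD (-0.78, adjusted p = 0.000332 from limma) and rose in Rh30 (0.46, adjusted p = 0.00869), and CHRNA1, an acetylcholine receptor subunit gene, rose in RD (0.42, adjusted p = 0.000127 from limma) and fell in Rh30 (-0.64, adjusted p = 8.55e-05). On the heart list NPPB fell in Rh30 from 14.6 ± 2.15 to 3.38 ± 0.597 FPKM (-1.83, adjusted p = 0.00033 from limma) and was below 1 FPKM on average in RD. GATA4 rose in Rh30 from 7.38 ± 1.30 to 10.7 ± 0.533 FPKM (0.50, adjusted p = 0.0224 from limma), a call lost without Scramble replicate 3 (adjusted p = 0.062 from limma) or KDM3A-sh2 replicate 1 (adjusted p = 0.0708) or 3 (adjusted p = 0.0664). NPPA was 0.799 ± 0.0964 and 2.12 ± 0.385 FPKM in Rh30 and was called higher, but it reached the filter only through KDM3A-sh2. NKX2-5 fell in RD (-0.57, adjusted p = 0.000483 from limma) and had a log2 difference of 0.26 in Rh30 (adjusted p = 0.0789).

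The genes whose pattern over the 12 libraries was most like that of TNNC1, by Pearson's r of log2(FPKM + 1) among 10799 protein-coding genes averaging 5 FPKM or more, were SEPT11 (r = 0.978), CD46 (0.975), TEAD4 (0.975), RAB15 (0.973) and SLC7A6 (0.971). Those most like TNNT2 were TPM1 (0.978), MCAM (0.973), RAB15 (0.970), NKAIN4 (0.964) and LAMA5 (0.958). The 12 points fall in 4 groups and share their libraries, so these values rank likeness and do not test it. Mean levels of SEPT11 were 592 and 361 FPKM in RD and 506 and 202 in Rh30, with Scramble first, and those of TPM1 followed TNNT2 in being highest in Rh30 Scramble.

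Genes next to the troponin genes were compared as well. PHLDA3 next to TNNI1, PPP1R12C next to TNNT1 and LSP1 next to TNNI2 and TNNT3 were called in neither line (limma adjusted p 0.0649 to 0.456). SYT8, also next to TNNI2, was tested in Rh30 only and was not called (limma adjusted p = 0.408). NISCH, which starts 1047 bases beyond TNNC1 on the other strand, was 55.2 ± 4.01 and 48.2 ± 0.613 FPKM in RD (log2 difference -0.19, adjusted p = 0.036 from limma) and 44.7 ± 3.98 and 37.3 ± 2.01 in Rh30 (-0.26, adjusted p = 0.0441), a smaller difference than that of TNNC1. Each call was made in 6 of 15 other analyses. The RD call was lost without Scramble replicate 3 or any KDM3A-sh2 replicate (limma adjusted p 0.0608 to 0.0977), and the Rh30 call without Scramble replicate 1 or 2 or any KDM3A-sh2 replicate (limma adjusted p 0.0666 to 0.125). LAD1, whose annotated span overlaps TNNT2 by 4519 bases on the same strand, was 2.05 ± 0.186 and 3.02 ± 0.512 FPKM in Rh30 (0.39, adjusted p = 0.0667 from limma), and was not called. AC010327.1, annotated as protein-coding, overlaps TNNI3 by 3017 bases on the same strand and reached at most 0.263 FPKM in any library. The pseudogene AC096677.3 overlaps TNNI1 by 387 bases on the other strand. Reads in an overlap can be split between the genes by the counting, and the strand setting of the counting was not stated. DNAAF3, 887 bases from TNNI3 on the same strand, fell in RD from 7.65 ± 1.13 to 4.41 ± 0.368 FPKM (-0.67, adjusted p = 0.00356 from limma) and in Rh30 from 29.3 ± 2.32 to 15.1 ± 0.401 (-0.91, adjusted p = 0.000317). Next to TNNC2, SNX21 starts 64 bases away on the other strand and was 38.7 ± 2.28 and 43.5 ± 2.34 FPKM in RD (0.17, adjusted p = 0.0685 from limma). UBE2C, a cell cycle ubiquitin enzyme gene 6256 bases from TNNC2 on the other side, fell in RD from 292.7 ± 13.3 to 160.6 ± 3.24 FPKM (-0.86, adjusted p = 2.46e-05 from limma) and was 509 ± 5.49 and 501 ± 19.2 FPKM in Rh30 (-0.03, adjusted p = 0.645). MRPL23, 8571 bases from TNNT3, rose in Rh30 from 27.4 ± 3.08 to 36.5 ± 1.01 FPKM (0.41, adjusted p = 0.0135 from limma). Its RD value was -0.20 (adjusted p = 0.0373 from limma), a call lost without Scramble replicate 1 or 3 or KDM3A-sh2 replicate 1 or 3 (limma adjusted p 0.0766 to 0.108).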

How the data were processed

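Poly(A) RNA of RD and Rh30 cells with Scramble or KDM3A-sh2 was sequenced as 12 libraries. Per the labels the authors aligned reads to GRCh38 with GSNAP and used SAMtools and Cufflinks, and they deposited FPKM per gene with no log. The annotation release and strand setting were not given in the sources used here. Read length is 151 bases in the labels and shorter in the Methods. Of 66095 entries for 65975 identifiers, 120 repeated entries with the lower mean were left out, and the value 999999999, found in 17 genes and in no troponin gene, was read as missing. Positions came from GENCODE 29.

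The knockdown was compared with its control in each line, Rh30 with RD in Scramble libraries, and the effects between lines (interaction), with limma 3.58.1 in R 4.3.3 (lmFit, eBayes with a trend). Genes averaging 1 FPKM or more in the fitted libraries were tested on log2(FPKM + 1), with two-sided Benjamini-Hochberg adjusted p-values and a threshold of 0.05. The study used ANOVA on FPKM, which was run as an alternative. The fits were tested on simulated data. With 3 libraries against 3, an exact permutation test cannot go below p = 0.1, so smaller values rest on limma's model. pandas 2.3.3 and matplotlib 3.10.9 under Python 3.11.15 made tables and figures.

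The troponin genes, the 9 gene lists and the tests were chosen with earlier results of these data known. Genes named are the 8 troponins, KDM3A, called list genes averaging 10 FPKM or more whose groups do not overlap (at most 3 per direction), tested members of the thin filament and myogenic regulator lists, the 5 genes most like TNNC1 and TNNT2, and neighbours in the genome. NPPB, NPPA, GATA4, CKM, MYOZ2, TCAP, CSRP3, PVALB and MYL1 in Rh30 lie below that mean and were named after their values were seen. Alternatives were another pseudocount, no filter, a filter of 10 FPKM, TPM and median ratio scaling, ANOVA, limma without a trend, a replicate block, one fit over all 12 libraries, and leaving out each library. One further list of the design is not reported here.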

Additional observations from a re-analysis of the deposited data

Results flagged for a closer look

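The knockdown effect differed between Rh30 and RD in a limma interaction over all 12 libraries for 3 troponin genes. The values, Rh30 minus RD on the log2 scale, were -0.96 for TNNC1, -0.56 for TNNC2 and -0.77 for TNNT2, each lower in Rh30. Because the troponin genes were chosen on these contrasts, the values are a description.

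Among the genes of the thin filament and myogenic regulator lists and KDM3A, the same test passed for TPM1 (-1.42), LMOD3 (-0.55), MEF2A (-0.33) and TEAD4 (-0.24), with the lower value in Rh30. It also passed for MYOG (0.70), MYOD1 (0.52), TPM2 (0.39), KDM3A (0.37), MEF2C (0.35) and ACTC1 (0.16), with the higher value in Rh30. Of 8 thin filament genes tested 2 passed as higher and 2 as lower, and of 10 myogenic regulators 3 and 2. Over all 18517 genes tested 27.8% passed. MYOG and MYOD1 were called higher in Rh30 and lower in RD, with the limits given beside them. For MEF2C both lines had a rise, and for TEAD4 and KDM3A both had a fall. Of 19 other analyses, the difference between lines passed in 7 for KDM3A, 10 for MEF2C, 10 for TEAD4, 14 for MEF2A and 15 for ACTC1, and in all 19 for the other genes named so far. The ANOVA on unlogged FPKM gave the opposite sign for TNNC2 and ACTC1. The other genes given with knockdown values were mostly named for a call in these same libraries, so their passes are a description. Among them the test passed for MYLPF (-1.32), CHRNA1 (-1.06) and ATP2A2 (-0.11), lower in Rh30. With the higher value in Rh30 it passed for CKM (1.24), UBE2C (0.84), NKX2-5 (0.83), MYH3 (0.78), TTN (0.71) and MRPL23 (0.61). It passed in 6 of 19 other analyses for ATP2A2 and in all 19 for the others but MYLPF. For MYLPF it passed in 18, and its sign turned in the ANOVA. NPPB (-1.88) averaged below 1 FPKM in RD and reached the filter only through Rh30. Its value follows the fall in Rh30 and is a description with no test. Groups of 3 libraries are too small for a check of single libraries that stand apart.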

How the results depend on the processing

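TNNC1 and TNNT2 kept their direction and their call in both lines in every alternative run, with log2 differences from -1.15 to -1.07 (TNNC1, RD), -2.18 to -1.999 (TNNC1, Rh30), -0.25 to -0.19 (TNNT2, RD) and -1.02 to -0.98 (TNNT2, Rh30) on the log2 scale. The number of troponin genes called ran from 6 to 7 in RD, from 6 to 7 in Rh30 and was 7 between lines in Scramble when single libraries were left out. The 7 between lines include TNNI3, which had to differ and is given with no test. An ANOVA on unlogged FPKM called 6 troponin genes for the difference between lines in place of 3, and turned its sign for TNNC2 (17.98 FPKM) and TNNI1 (-419 FPKM), and also for TNNT1 (-92.7 FPKM), which neither fit called, since differences in FPKM weigh the line with the higher level. TNNC2 in RD lost its call in the fit over all 12 libraries and in Rh30 without Scramble replicate 1 or KDM3A-sh2 replicate 2, TNNT3 in RD lost it in the fit over all 12 libraries, and TNNI1 passed for the difference between lines (0.20) without Rh30 Scramble replicate 2. The cause of these changes was not tested.

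The titles give each group replicates 1 to 3. Deviations of same-numbered libraries had correlations from -0.08 to -0.02, and those of other pairs from -0.01 to 0.08. Same-numbered libraries thus showed no shared deviation, but this cannot exclude that they were handled in pairs. With a replicate block 6 troponin genes were called in RD, 6 in Rh30, 7 between lines in Scramble and 3 for the difference of effects, with TNNI3 in Rh30 losing its call, and 29 and 20 of the other muscle genes in RD and Rh30. The 7 between lines include TNNI3, which had to differ.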
